A study of Mus musculus with 10 samples.

Results

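Mouse embryonic fibroblasts (MEFs) are connective tissue cells grown out of the dissociated embryo, and so descend from several parts of the body. The genes described here are 40 regulators of limb and body position other than the Hox genes, out of 52550 genes in the deposited table. They were chosen by symbol from what is known of their roles in the forelimb, the hindlimb, the trunk and the face. No measured value was used as a criterion, though earlier results of these data were known. All 40 are in the table, and 35 had enough reads to be tested. All are transcription factors except Cyp26b1, an enzyme that breaks down retinoic acid.

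The cells came from C57BL/6 embryos at embryonic day 14, with no engineered allele or treatment in either group, and RNA was taken at passage 3 in medium with fetal bovine serum. There were 5 libraries labelled male and 5 labelled female, numbered by replicate within a sex. The libraries were made from total RNA depleted of ribosomal RNA, so they hold intron reads from unspliced transcripts beside exon reads. Neither the part of the embryo that was plated nor whether each library had its own embryo or culture is stated in the labels. The p-values for sex below therefore set a difference against the spread between libraries of a sex, which may be technical. Those for pairs of genes come from shuffling the libraries without regard to sex.

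In the embryo, cells in different places express different sets of transcription factors. Tbx5 is needed for the forelimb bud, while Pitx1 and Tbx4 belong to the hindlimb. Meis1 and Meis2 mark the proximal limb, next to the trunk, where retinoic acid is active, and genes such as Msx1, Lhx2, Lhx9 and Evx2 mark growing distal or marginal mesenchyme. En1 and Lmx1b set ventral and dorsal identity, and Hand2, Gli3 and the Irx genes act along the anterior to posterior axis. Fibroblasts in culture are known to keep part of the positional code of the site they came from.

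The libraries held between 30662616 and 45859721 unique gene reads, that is, reads in exons or introns of a gene labelled unique by a rule not stated. Introns took between 22.5% (male 4) and 28.6% (female 3) of them. All 10 fibroblast markers examined were at 1 RPKM or more (unique exon reads per kilobase of exon, scaled for depth to RPKM by the TMM-adjusted total of unique gene reads), led by Vim at 2003 RPKM. The summed fibroblast level was between 4100 and 4938 RPKM in males and between 3915 and 5153 in females. Markers of other cell types were mixed. Of 8 macrophage markers, 5 reached 1 RPKM, led by Lyz2 at 29.3, and 3 of 8 neural or glial markers did, led by Nes at 19.3. Des, a filament gene of muscle and the most abundant muscle marker, was at 23.65 RPKM, and the other 7 markers of that list were under 0.1. Myod1, the defining gene of muscle precursors, was at 0.0148 RPKM and Myh6, of heart muscle, at 0.00425, while Hba-a1, an alpha globin gene, had 0 reads. These are bulk samples, in which fewer cells that express a gene and less RNA per cell cannot be told apart.

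Most of the patterning genes were expressed at passage 3, the only passage measured, so a change since plating could not be seen. Of the 40, 27 (67.5%) had a mean of at least 1 RPKM over the 10 libraries, against 45% of 21819 protein-coding genes. A further 8 lay between 0.1 and 1 RPKM, and 5 below 0.1. Only 5 reached 10 RPKM, or 12.5%, against 15.7% of coding genes. The 5 were Prrx1, Tbx15, Twist1, Prrx2 and Twist2, and the 5 lowest genes were Hand1, Gli1, Sall3, Sall4 and Dlx6. None of the 4 face genes reached 1 RPKM.

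**Figure D1:**
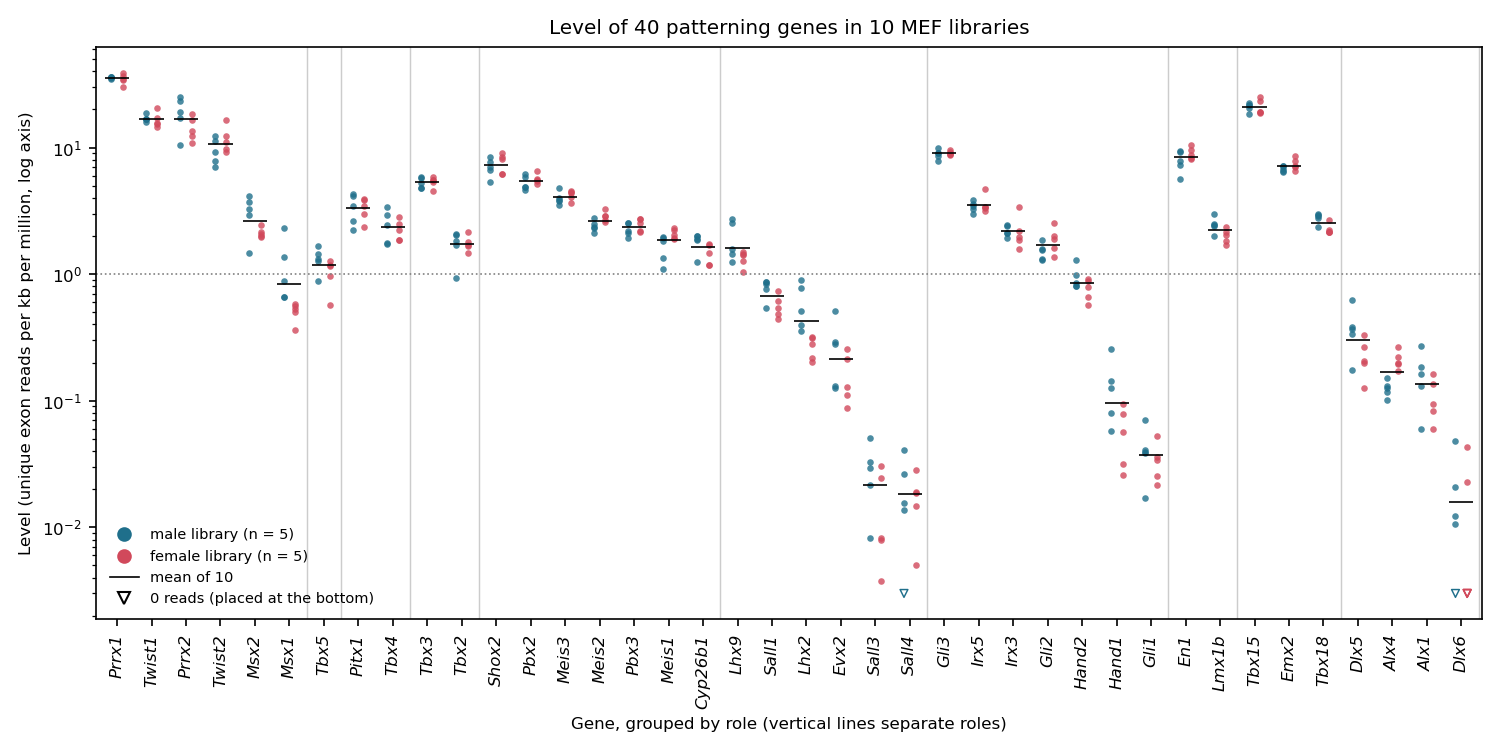
Level of the 40 genes (log axis, RPKM) in each library, grouped by role in the order limb bud mesenchyme, forelimb, hindlimb, limb and flank T-box, proximal limb and Hox cofactors, distal limb, anterior-posterior and Hedgehog, dorsal-ventral, trunk and girdle, and face. Each point is 1 library (5 male, 5 female), the bar is the mean of 10, open triangles are libraries with 0 reads, and the dotted line is 1 RPKM. Prrx1 leads at 35.3 RPKM and Dlx6 is lowest at 0.0157.

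Among factors of limb bud mesenchyme as a whole, Prrx1, a homeobox gene expressed throughout early limb mesenchyme, was the most abundant of all 40 at 35.3 ± 2.17 RPKM (SD, n = 10). Its libraries ran from 30.3 to 38.8, a 1.28-fold range, and every one lay above every library of the next gene, Tbx15. Further down the order, each neighbouring pair of genes overlapped between libraries. Twist1, a basic helix-loop-helix factor needed for limb mesenchyme, was at 16.8 ± 1.67 RPKM and Prrx2, the paralog of Prrx1, at 16.7 ± 5.06. Twist2, which holds back differentiation of mesenchymal cells, was at 10.7 ± 2.72. It was at 24.8 with total reads, which include those not unique, since only 68.9% of its reads were unique. Msx2, a homeobox gene of the bud margin and other growing tissue, was at 2.61 ± 0.86 RPKM. Its paralog Msx1 was lower, at 0.839 ± 0.583.

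The forelimb gene and both hindlimb genes were expressed together in every library. Tbx5 was at 1.17 ± 0.309 RPKM, Tbx4 at 2.35 ± 0.572 and Pitx1 at 3.32 ± 0.749 (SD, n = 10). The lowest Tbx4 library (1.74) was above the highest Tbx5 library (1.66), and the libraries of Tbx4 and Pitx1 overlapped. Tbx3 and Tbx2, T-box repressors expressed in the margins of both limbs and in the flank, were at 5.33 ± 0.494 and 1.73 ± 0.352 RPKM.

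All 7 genes grouped as proximal limb genes and Hox cofactors were above 1 RPKM. Shox2, which shapes the bone of the upper limb segment, led with 7.31 ± 1.22 RPKM. The TALE homeodomain partners of Hox proteins followed, with Pbx2 at 5.47 ± 0.624, Meis3 at 4.10 ± 0.408, Meis2 at 2.63 ± 0.33, Pbx3 at 2.36 ± 0.278 and Meis1 at 1.85 ± 0.376. Cyp26b1, which clears retinoic acid from the distal bud and so bounds the Meis domain, was at 1.63 ± 0.328. Exon reads made up only 37.4% of the reads on Meis1, 41.8% on Meis2 and 37.9% on Pbx3, so comparisons of these genes in CPM rest mostly on intron reads.

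Of the 6 distal limb genes only Lhx9, a LIM homeobox gene, reached 1 RPKM, at 1.62 ± 0.554. Sall1, a zinc finger gene of the limb and kidney, was at 0.67 ± 0.166 RPKM. Lhx2, which relays the signal of the apical ridge to the mesenchyme, was at 0.426 ± 0.234 and Evx2, the neighbour of Hoxd13, at 0.214 ± 0.128. Sall3 and Sall4 had 56 and 38 exon reads over all 10 libraries, that is 0.0215 RPKM (95% Poisson interval 0.0162 to 0.0279) and 0.0181 (0.0128 to 0.0249), intervals that cover counting error only.

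Along the other axes, Gli3, the main Hedgehog repressor of the limb, was at 8.998 ± 0.568 RPKM and Gli2, the chief activator, at 1.70 ± 0.378. Gli1, whose transcription reports active Hedgehog signalling, had 71 exon reads in all (0.0375 RPKM, 95% Poisson interval 0.0293 to 0.0474). Irx5 and Irx3, Iroquois genes of the anterior and proximal limb, were at 3.52 ± 0.484 and 2.20 ± 0.49. Hand2, the posterior gene upstream of Shh, was at 0.856 ± 0.198 RPKM, or 2.80 with total reads, since only 29.7% of its reads were unique. Its relative Hand1 had 72 exon reads (0.0952 RPKM, 0.0745 to 0.12). The ventral gene En1 was at 8.46 ± 1.36 RPKM and the dorsal gene Lmx1b at 2.24 ± 0.369, and their libraries did not overlap. Among trunk and girdle genes, Tbx15, which shapes the shoulder blade and trunk skin, was at 20.99 ± 2.19, Emx2, also of the shoulder girdle, at 7.12 ± 0.68 and Tbx18, of somites and flank, at 2.54 ± 0.346.

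All 4 face genes were low. Dlx5, a gene of the lower jaw arch and of bone, was at 0.301 ± 0.142 RPKM, Alx4 at 0.168 ± 0.0521 and Alx1, of the upper face, at 0.135 ± 0.0654. Dlx6 had 14 exon reads (0.0156 RPKM, 95% Poisson interval 0.00851 to 0.0261). Alx4 came to 0.97 RPKM with total reads, and it overlaps Ext2 on the opposite strand over 20312 bases. The strand setting of the counting is not stated, so reads of Alx4 and Ext2 cannot be told apart. The same holds for the antisense transcripts over Lhx2, Hand2, Twist2 and Irx3. Other members have opposite-strand transcripts too, among them Pbx3 (over 16670 bases), Gli1 (9584), Prrx1 (6690), Tbx15 (6588) and Dlx6 (5235).

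The genes varied unequally between libraries. The spread within a sex was ranked over all tested genes by edgeR's dispersion relative to that of genes of the same abundance. Prrx2 stood at the 99.2 percentile, Twist2 at 98.9, Lhx9 at 97.3, Gli2 at 96.8, Tbx5 at 96.5 and Evx2 at 96.0. In all, 14 of the 35 tested genes were at or above the 90th percentile, among them Pbx3, Meis1, Meis2, Msx1, Msx2, Tbx4, Pitx1 and Shox2. At the other end were Prrx1 at 20.3 and Tbx18 at 28.9. The SD of log2 CPM within a sex, which is not set against genes of the same abundance, ranked many of them lower. By that measure Evx2 was at the 97.35 percentile and Msx1 at 93.9, but Prrx2 at 83.4, Twist2 at 77.0, Meis1 at 65.5 and Meis2 at 59.9. From the lowest to the highest library, Msx1 changed 6.41-fold, Evx2 5.82-fold and Lhx2 4.44-fold in RPKM, against 1.27-fold for Gli3.

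Msx1, Msx2 and Prrx2 of the limb bud mesenchyme and Lhx2, Lhx9 and Sall1 of the distal limb were each highest in the same 2 libraries. Evx2, the other tested distal gene, was highest in male 5 and male 3 as well, but with r of only 0.49 to Sall1, 0.62 to Lhx9 and 0.66 to Lhx2. The hindlimb gene Tbx4, the posterior gene Hand2 and the dorsal gene Lmx1b were also highest in male 3 and male 5. Their r to Lhx2 was 0.66, 0.70 and 0.67, so the pattern was not confined to mesenchyme and distal genes. How many genes of the whole table were highest in both libraries was not counted. Of the other tested genes, 0.934% had an r of at least 0.8 to Msx1, 1.26% to Lhx9 and 1.32% to Lhx2. The share was 1.32% for Msx2, 1.52% for Sall1 and 2.17% for Prrx2, and 0.777% over all pairs of tested genes. Comparisons between libraries are in CPM, unique gene reads scaled by the TMM-adjusted total of the library. Msx1 was at 1.34, 1.51, 4.64, 1.82 and 2.94 CPM in male 1 to 5, and at 1.22, 1.08, 0.758, 1.35 and 1.13 in female 1 to 5. Lhx2 was at 2.02, 2.06, 4.04, 2.66 and 4.49 CPM in the males and at 1.19, 1.41, 1.26, 1.71 and 1.52 in the females. Lhx9 was at 11.9, 14.6, 25.9, 13.2 and 23.0 CPM in the males and at 9.49, 12.8, 12.0, 13.1 and 13.0 in the females. For each of these 3 genes male 3 and male 5 were the highest of the 10 libraries, while the other males were close to the females for Lhx9 (11.9 to 14.6 CPM) and Msx1 (1.34 to 1.82 CPM). Msx2 was highest in the same 2 libraries, at 10.95 and 10.1 CPM against 4.01 to 8.34 in the rest. So were Prrx2, at 59.99 and 65.9 against 26.9 to 50.5, and Sall1, at 5.77 and 5.42 against 3.11 to 5.01.

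Stretches of 250 bases upstream of the start are shown for members that varied together or in opposite directions, so that their sequences can be set side by side. They come from the RefSeq promoter table (GRCm38.p6, equal to mm10) and run 5′ to 3′ on the gene's strand. Capitals mark the MEIS core TGACAG, or CTGTCA on the other strand. The homeodomain core TAATTA, which is its own reverse complement and cannot overlap the MEIS core, was searched too.
Msx1, chr5:37824586-37824835, minus strand: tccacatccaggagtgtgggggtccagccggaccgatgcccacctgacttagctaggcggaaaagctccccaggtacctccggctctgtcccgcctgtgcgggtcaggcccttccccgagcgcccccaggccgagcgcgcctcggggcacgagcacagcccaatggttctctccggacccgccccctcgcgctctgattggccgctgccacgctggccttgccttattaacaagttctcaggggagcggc
Lhx2, chr2:38339031-38339280, plus strand: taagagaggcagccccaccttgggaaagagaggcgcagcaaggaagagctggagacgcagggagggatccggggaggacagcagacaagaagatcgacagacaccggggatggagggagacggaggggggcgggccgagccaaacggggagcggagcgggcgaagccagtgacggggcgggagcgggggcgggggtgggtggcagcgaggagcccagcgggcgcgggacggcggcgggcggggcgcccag
Lhx9, chr1:138842445-138842694, minus strand: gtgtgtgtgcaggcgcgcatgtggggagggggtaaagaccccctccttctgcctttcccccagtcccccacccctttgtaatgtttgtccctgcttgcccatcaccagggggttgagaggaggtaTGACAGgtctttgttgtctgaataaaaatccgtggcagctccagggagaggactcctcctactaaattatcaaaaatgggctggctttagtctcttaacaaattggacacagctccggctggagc
Sall1, chr8:89044163-89044412, minus strand: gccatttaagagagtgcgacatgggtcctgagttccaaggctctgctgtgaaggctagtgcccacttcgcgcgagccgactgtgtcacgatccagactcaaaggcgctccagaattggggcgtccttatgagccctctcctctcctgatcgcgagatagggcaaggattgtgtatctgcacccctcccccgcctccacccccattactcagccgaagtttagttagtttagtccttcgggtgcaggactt
Evx2, chr2:74659558-74659807, minus strand: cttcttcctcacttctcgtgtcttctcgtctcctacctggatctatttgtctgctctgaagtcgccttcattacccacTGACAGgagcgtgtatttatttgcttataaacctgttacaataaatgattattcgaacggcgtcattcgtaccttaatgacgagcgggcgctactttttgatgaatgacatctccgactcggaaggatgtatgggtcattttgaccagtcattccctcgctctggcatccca
Meis1, chr11:19018970-19019219, minus strand: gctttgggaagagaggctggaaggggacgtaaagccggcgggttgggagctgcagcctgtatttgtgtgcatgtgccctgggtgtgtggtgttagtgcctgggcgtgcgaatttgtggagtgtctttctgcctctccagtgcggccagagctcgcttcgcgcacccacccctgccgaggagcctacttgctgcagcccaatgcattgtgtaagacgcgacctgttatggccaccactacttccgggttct

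The Msx1, Lhx2, Sall1 and Evx2 stretches lie outside any annotated exon. The Lhx9 stretch belongs to a start inside the gene and shares 13 bases with an exon, and that of Meis1 shares 16. Of the 6 sequences, those of Lhx9 and Evx2 hold a MEIS core and none holds the homeodomain core. Msx2 and Prrx2, which varied with these genes, have entries that are not shown, as do other starts of Lhx2 and Sall1. Among those entries only that of Msx2 holds the homeodomain core, and none holds a MEIS core. Among the 25 members with an entry, 4 hold a MEIS core (En1, Evx2, Lhx9 and Twist2), where 15.9% of all 32851 promoters do, and 3 hold the homeodomain core (Hand2, Msx2 and Prrx1), where 4.84% do. The members' stretches were rich in G and C, with a median of 63% and 17 CpG sites, against 52.4% and 6 over all promoters. A match of letters is not a bound site, and no match says only that these letters are not in this window.

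Meis1 ran against these genes, and Meis2 more weakly. Meis1 was at 63.6, 46.9, 38.7, 44.5 and 36.3 CPM in male 1 to 5, and at 55.0, 50.8, 68.3, 52.6 and 65.4 in female 1 to 5. Meis2 was at 85.9, 67.0, 65.0, 61.2 and 61.0 CPM in the males and at 73.5, 67.9, 102.3, 76.2 and 93.7 in the females. In CPM, which rest mostly on intron reads, male 5 was lowest for both genes and female 3, the library with the highest intron share, was highest. In exon reads alone male 3 was lowest and female 5 highest for both. Meis1 was then at 1.09 RPKM in male 3 and 1.34 in male 5 against 1.81 to 2.31 in the other 8 libraries. Meis2 ran from 2.12 RPKM in male 3 to 3.25 in female 5, with female 3 at 2.88. Among the other genes grouped with Meis1 and Meis2, Cyp26b1 ran with the genes highest in male 3 and male 5 (r = 0.66 to Lhx2), while Pbx2 and Pbx3 had r of -0.05 and -0.09 to Lhx2. Shox2 and Meis3 had r of -0.50 and -0.39 to Lhx2, the same direction as Meis1 and Meis2. Twist2 was lowest in male 5 in CPM, at 69.2, and ran up to 152.7 in male 1, but exon reads made up only 32.2% of its reads. In exon reads alone Twist2 was again lowest in male 5, at 7.03 RPKM. It was then highest in female 2, at 16.56, with male 1 at 12.26.

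**Figure D2:**
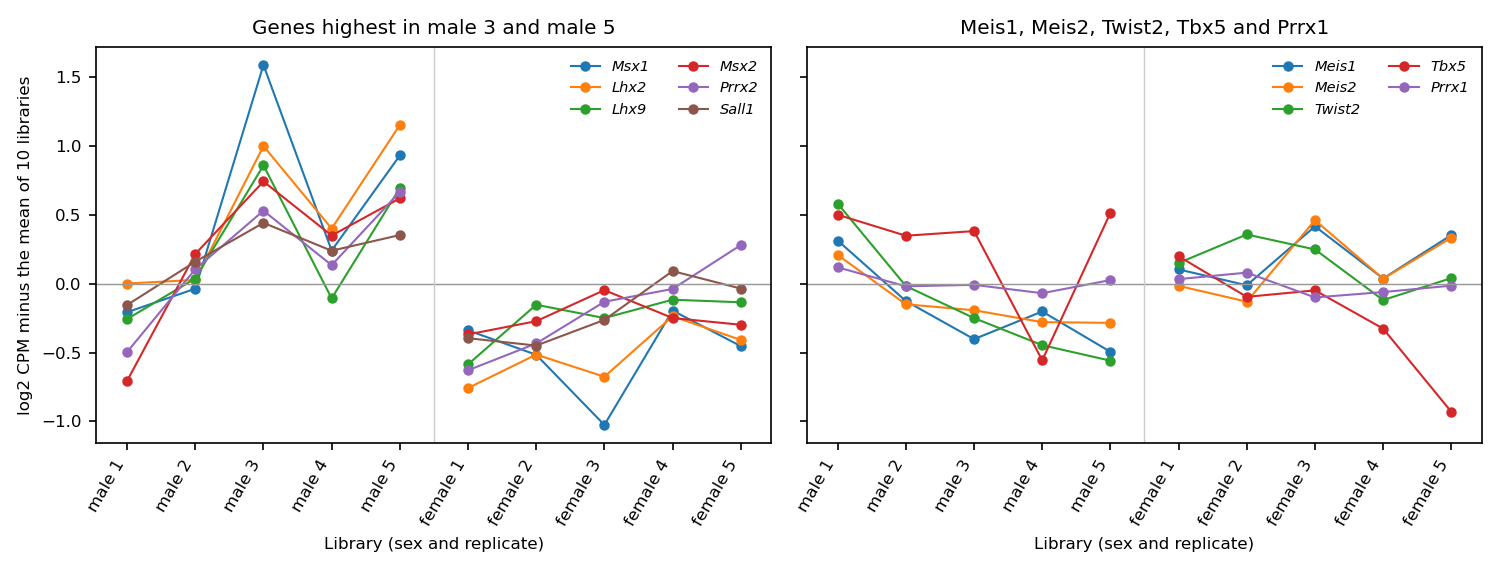
Level of each gene as log2 CPM minus its mean over the 10 libraries, by library (left: Msx1, Lhx2, Lhx9, Msx2, Prrx2 and Sall1; right: Meis1, Meis2, Twist2, Tbx5 and Prrx1). Lines join the points of a gene within a sex and carry no order. Male 3 and male 5 are the highest libraries for all 6 genes on the left, and Prrx1 stays near its mean.

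Over the 10 libraries, 31 of the 595 pairs of tested members (5.21%) had a Pearson r of at least 0.8 in size, against 1.46% of all 137804901 pairs of tested genes. Of these, 20 (3.36%) were positive, where the share over all pairs was 0.777%, and 11 (1.85%) negative, where it was 0.679%. All 31 kept an r of at least 0.7 in size without any 1 library, where the share over all gene pairs that did both was 1.22% (0.649% positive and 0.574% negative). With each sex centred on its own mean, 28 pairs (4.71%) were at 0.8 or more, against 2.25% of all gene pairs. These r are descriptions of 10 points that share library, depth and sex, and they carry no p, except for the 3 pairs that were also among the pairs tested below (Meis1 with Meis2, Lhx2 with Lhx9 and Tbx4 with Pitx1).

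Msx1, Lhx2, Lhx9, Msx2, Prrx2 and Sall1, grouped after seeing these values, held 11 of the positive pairs, and Tbx18 was joined to them by 2 more. Msx1 and Lhx2 had an r of 0.92, Lhx2 and Lhx9 0.90, Sall1 and Lhx2 0.89, Msx1 and Lhx9 0.88 and Prrx2 and Sall1 0.88. Meis1 ran against this group, with an r of -0.86 to Msx1, -0.84 to Lhx2 and -0.84 to Msx2. Twist2 did so too, with -0.83 to Msx2, -0.81 to Sall1 and -0.81 to Prrx2. With male 3 and male 5 both left out, Msx1 and Lhx2 stayed at 0.83 and Sall1 and Lhx2 at 0.82, while Msx1 and Lhx9 fell to 0.30, Msx2 and Lhx9 to 0.50 and Meis1 and Lhx2 to -0.54. Without both libraries 26 pairs (4.37%) were at 0.8 or more in size, against 3.18% of all gene pairs.

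Markers of other cell types also differed between these libraries. The summed level of 10 cartilage and bone markers was 14.5 RPKM in male 3, 17.3 in male 5 and 18.3 in male 4, with a range of 11.0 to 18.3 in males and 10.4 to 14.9 in females. Of those markers, 2 reached 1 RPKM and 4 were under 0.1, with Sox9 at 9.50, Col2a1 at 3.32 and Acan at 0.159. The summed level of 7 epithelial markers was highest in male 5, at 61.6 RPKM, with 32.5 to 61.6 in males and 33.9 to 48.3 in females, with Krt19 at a mean of 37.55 and Krt18 at 6.202, while Epcam was at 0.0745 and Cdh1 at 0.0273. Their part in the pattern of the 6 genes was not tested. The intron share was 26.3% in male 3 and 26.6% in male 5, inside the range of the other libraries, and with exon reads alone 27 pairs (4.54%) were at 0.8 or more in size, against 1.56% of all gene pairs. With intron reads alone 5 of 406 pairs (1.23%) were, against 0.833% of all gene pairs. Sall1 with Lhx2 then fell to 0.11, Tbx18 with Sall1 to 0.18 and Twist2 with Sall1 to -0.19. Sall1 had only 0.4344 to 1.185 intron CPM per library and Lhx2 0.131 to 0.6406, so these r rest on few intron reads.

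A further group joined the posterior and ventral genes. Hand2 was at 2.05, 1.88, 2.31, 1.91 and 3.17 CPM in male 1 to 5, and at 1.87, 1.34, 2.15, 2.08 and 1.55 in female 1 to 5. Evx2 was at 1.28, 0.627, 1.38, 0.608 and 2.28 CPM in the males and at 0.623, 0.462, 1.07, 0.955 and 0.419 in the females. Both were highest in male 5, and their r over the 10 libraries was 0.93. En1 was at 22.6, 26.7, 20.8, 25.8 and 16.1 CPM in the males and at 23.9, 29.6, 24.7, 23.2 and 26.4 in the females, lowest in male 5 and highest in female 2. Its r was -0.93 to Hand2 and -0.91 to Evx2. Without male 3 and male 5 these 3 values were 0.84, -0.83 and -0.77. With total reads, the r of Hand2 to Evx2 was 0.75 and to En1 -0.73. Evx2 had between 16 and 93 unique reads per library.

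**Figure D3:**
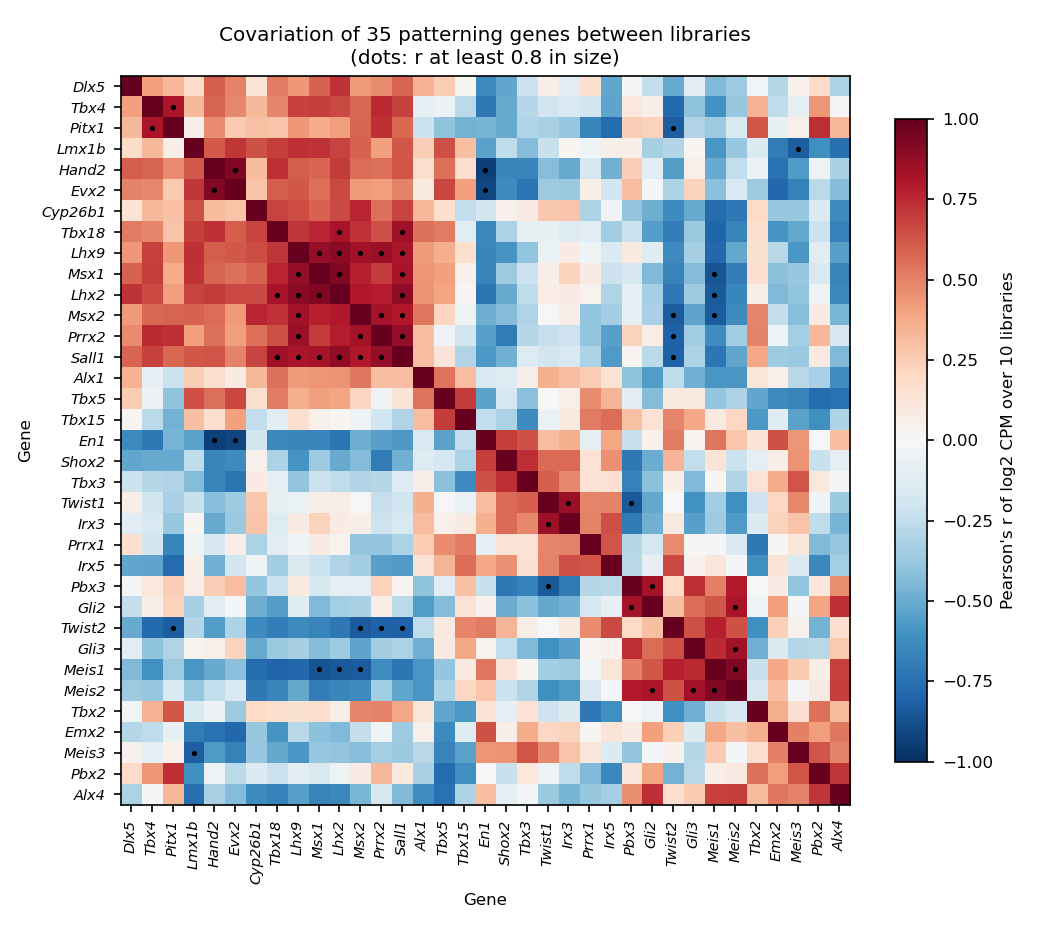
Pearson's r of log2 CPM over 10 libraries for each pair of the 35 tested genes, ordered by average linkage clustering (red positive, blue negative, dots mark an r of at least 0.8 in size). The block around Lhx9, Msx1, Lhx2, Msx2, Prrx2 and Sall1 is red, and the Meis1 and Twist2 columns are blue against it.

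Apart from these, Meis2 went with Gli3 (r = 0.84) and Gli2 (0.81), and Gli2 with Pbx3 (0.83). Exon reads made up 32.2% of the reads on Gli2 and 51.7% of those on Gli3. With exon reads alone Meis2 and Gli3 fell to 0.44, Meis2 and Gli2 to 0.76, and Gli2 and Pbx3 to 0.72. Twist1 and Irx3 had an r of 0.87, with a Spearman rho of 0.67. The dorsal gene Lmx1b ran against Meis3 (r = -0.83), and Twist1 against Pbx3 (-0.84, but 0.09 with intron reads). Twist1 had only 0.5963 to 1.349 intron CPM per library, so the value with intron reads rests on few of them.

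Pairs set from known relations, that is paralogs, gene neighbours and regional partners, were tested with a permutation p and Benjamini-Hochberg adjustment. They were chosen with earlier results of these data known, so their p-values are not those of pairs fixed beforehand. There were 29, of which 24 could be tested because both genes had enough reads. By Pearson's r, 6 passed at an adjusted p under 0.05, 5 of them positive. By Spearman's rho, 2 did, Meis1 with Meis2 and Lhx2 with Lhx9.

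Tbx4 and Pitx1, the hindlimb genes, passed. Tbx4 was at 8.08, 7.95, 13.4, 10.5 and 15.5 CPM in male 1 to 5, and at 9.60, 8.42, 8.31, 12.7 and 11.5 in female 1 to 5. Pitx1 was at 6.32, 7.33, 10.2, 11.3 and 12.3 CPM in the males and at 8.38, 7.09, 9.77, 10.8 and 10.9 in the females. Male 5 was highest for both. Their r was 0.82 (n = 10, permutation p = 0.00532, adjusted 0.0308) and their rho 0.79 (permutation p = 0.00909, adjusted 0.0545). Without male 3 and male 5, the libraries farthest from the median of Tbx4, r was 0.79, and with each sex centred on its own mean 0.83. With intron reads, of which Pitx1 had only 0.3475 to 1.057 CPM per library, it was 0.51. With a library left out r stayed between 0.77 and 0.89, but the adjusted p passed in only 3 of the 10 cases, without female 1, female 3 or male 4, and reached 0.117 without male 5.

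Tbx5 did not follow them. It was at 12.7, 11.4, 11.7, 6.08 and 12.8 CPM in male 1 to 5, and at 10.3, 8.37, 8.65, 7.13 and 4.69 in female 1 to 5. Its lowest libraries, female 5 and male 4, were above the median for Pitx1. The r of Tbx5 was -0.06 to Tbx4 (n = 10, permutation p = 0.866, adjusted 0.911) and -0.40 to Pitx1 (permutation p = 0.25, adjusted 0.462). The rho were -0.02 and -0.25. Exon and intron reads of Tbx5 moved together over the libraries (r = 0.88), as did those of Tbx4 (0.89), while those of Pitx1 did not (0.09). Pitx1 had only 0.3475 to 1.057 intron CPM per library, so its value rests on few intron reads. Tbx5 lies beside Tbx3 on chromosome 5 and Tbx4 beside Tbx2 on chromosome 11. Neither pair of neighbours passed, with r of -0.42 for Tbx3 and Tbx5 (permutation p = 0.226, adjusted 0.452) and 0.35 for Tbx2 and Tbx4 (permutation p = 0.339, adjusted 0.542).

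**Figure D4:**
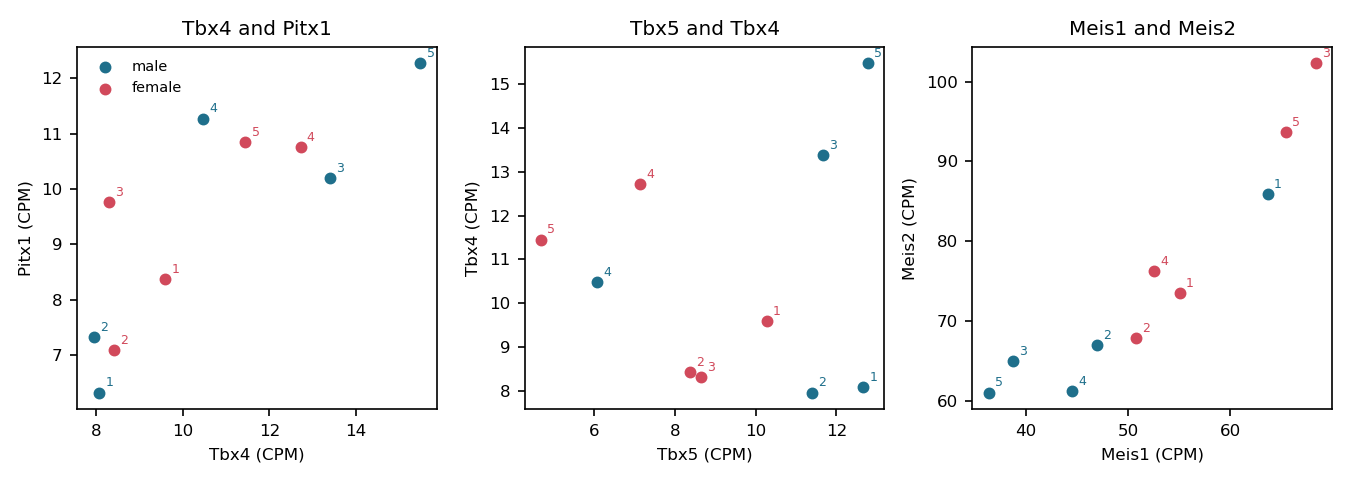
Levels in CPM of Tbx4 against Pitx1, Tbx5 against Tbx4, and Meis1 against Meis2, with 1 point per library (numbers are replicates, colours the sexes). Tbx4 with Pitx1 (r = 0.82) and Meis1 with Meis2 (r = 0.92) follow a line, and Tbx5 with Tbx4 does not (r = -0.06).

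Meis1 and Meis2 were the closest pair of paralogs, with an r of 0.92 (n = 10, permutation p = 0.00018, adjusted 0.00432) and a rho of 0.98. It was 0.97 without male 3 and male 5, 0.87 in exon reads and 0.87 in intron reads. Lhx2 and Lhx9 had an r of 0.90 (permutation p = 0.00131, adjusted 0.0157) and a rho of 0.85 (permutation p = 0.00271, adjusted 0.0325), but r was 0.61 without male 3 and male 5. Msx1 and Msx2 had an r of 0.78 (permutation p = 0.00641, adjusted 0.0308) and a rho of 0.70 (permutation p = 0.0299, adjusted 0.102). That relation rested on male 3 and male 5, without which r was 0.33. Evx2 and its neighbour Hoxd13, of the digits, had an r of 0.81 (permutation p = 0.00467, adjusted 0.0308), a rho of 0.65 (adjusted 0.133), and 0.60 without female 5 and male 5. Meis1 ran against Cyp26b1, with an r of -0.77 (permutation p = 0.0103, adjusted 0.0414), a rho of -0.79 (adjusted 0.0545) and -0.77 without male 3 and male 5. When each sex was centred on its own mean, Meis1 with Meis2, Lhx2 with Lhx9 and Tbx4 with Pitx1 still passed, while Msx1 with Msx2 (0.66), Meis1 with Cyp26b1 (-0.67) and Evx2 with Hoxd13 (0.77) did not. With each library left out in turn, Meis1 with Meis2 and Lhx2 with Lhx9 passed in all 10 cases (adjusted p up to 0.0175 and 0.0485). Evx2 with Hoxd13 passed in 5 of 10, failing without female 2, 4 or 5 or male 3 or 5 (up to 0.117, r down to 0.68). Msx1 with Msx2 passed in 3, without female 1 or 3 or male 1, and Meis1 with Cyp26b1 in 2, without female 1 or 3, with adjusted p up to 0.193 and 0.15.

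Several other paralogs did not pass. The r was 0.00 for Twist1 and Twist2, -0.38 for Prrx1 and Prrx2, 0.12 for Pbx2 and Pbx3, -0.11 for Tbx15 and Tbx18 and 0.15 for Tbx2 and Tbx3. Gli2 and Gli3 were at 0.56, Irx3 and Irx5 at 0.64 and Alx1 and Alx4 at -0.63. The dorsal and ventral genes Lmx1b and En1 were at -0.53, and the posterior and anterior genes Hand2 and Gli3 at 0.05. Hoxc10, a Hox gene of the hindlimb level, was at 0.30 to Pitx1 and -0.09 to Tbx4. With 10 libraries, an r that misses the threshold does not show that 2 genes vary independently.

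Male and female cells were compared over all 16602 tested genes with edgeR's quasi-likelihood test, which called 15 genes at an adjusted p under 0.05, or 0.0904%. None of the 35 tested members was called. Of them, 20 had a negative log2 fold change (female minus male) and 15 a positive one, with a median of -0.02 beside 0.00 over all tested genes. At an unadjusted p under 0.05, 9 members (25.7%) were higher in males, against 3.49% of all tested genes, and 4 (11.4%) were higher in females, against 2.05%. These members vary together between libraries, so they are not independent counts.

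The member closest to a call was Lhx2, with a mean of 3.05 ± 1.14 CPM over the males against 1.42 ± 0.208 over the females (SD, n = 5). Its log2 fold change was -1.10 ± 0.23 (SE), with an edgeR adjusted p of 0.158 over all genes. Each male library was above each female library. Lhx2 was the only member without overlap between the sexes, 1 of 35 (2.86%), where 0.602% of all tested genes were higher in males without overlap and 0.373% in females. The gene was called with DESeq2 (adjusted p = 0.00308), with no filter on low counts (0.0062), and without male 1 (0.0445), but not with the other normalizations, read types or limma-voom. Only 72% of its reads were unique, and with total reads the log2 fold change was -0.90.

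The other distal and marginal genes had negative fold changes that did not pass. On the log2 scale Msx1 was at -1.15 ± 0.32 (SE, edgeR adjusted p = 0.526), Evx2 at -0.80 ± 0.38, Msx2 at -0.56 ± 0.21, Lhx9 at -0.55 ± 0.21 and Sall1 at -0.42 ± 0.14, with adjusted p from 0.67 to 0.902. All 4 tested distal genes were negative, with a median of -0.68. With male 3 and male 5 both left out, the values were -0.66 for Lhx2, -0.50 for Msx1, -0.24 for Evx2, -0.27 for Msx2, -0.14 for Lhx9, -0.29 for Sall1 and 0.17 for Meis1, each closer to 0 than with all libraries. Msx2 was called without male 1 (log2 fold change -0.73, adjusted p = 0.0297). The forelimb gene Tbx5 was at -0.48 ± 0.23, Tbx4 at -0.13 ± 0.2 and Pitx1 at -0.02 ± 0.18. Of the 7 proximal genes and cofactors 6 were positive, with Meis1 at 0.34 ± 0.15 and Meis2 at 0.28 ± 0.13 (adjusted p = 0.862 and 0.892). Alx4 had the largest positive value, 0.65 ± 0.18 (adjusted p = 0.504), with its unique share of 28.4%, while the other face genes Dlx5 and Alx1 were at -0.86 ± 0.29 and -0.67 ± 0.29. In simulated counts with known answers, the same test recovered 96% of genes changed 2-fold and 64% of those changed 1.5-fold among 16337 genes. Recovery was not measured for the members themselves. Many of them varied more between libraries than genes of the same abundance, so these rates cannot be carried over to them. Msx1 and Lhx2, at -1.15 and -1.10, were beyond 2-fold and still were not called in the edgeR fit with all libraries.

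**Figure D5:**
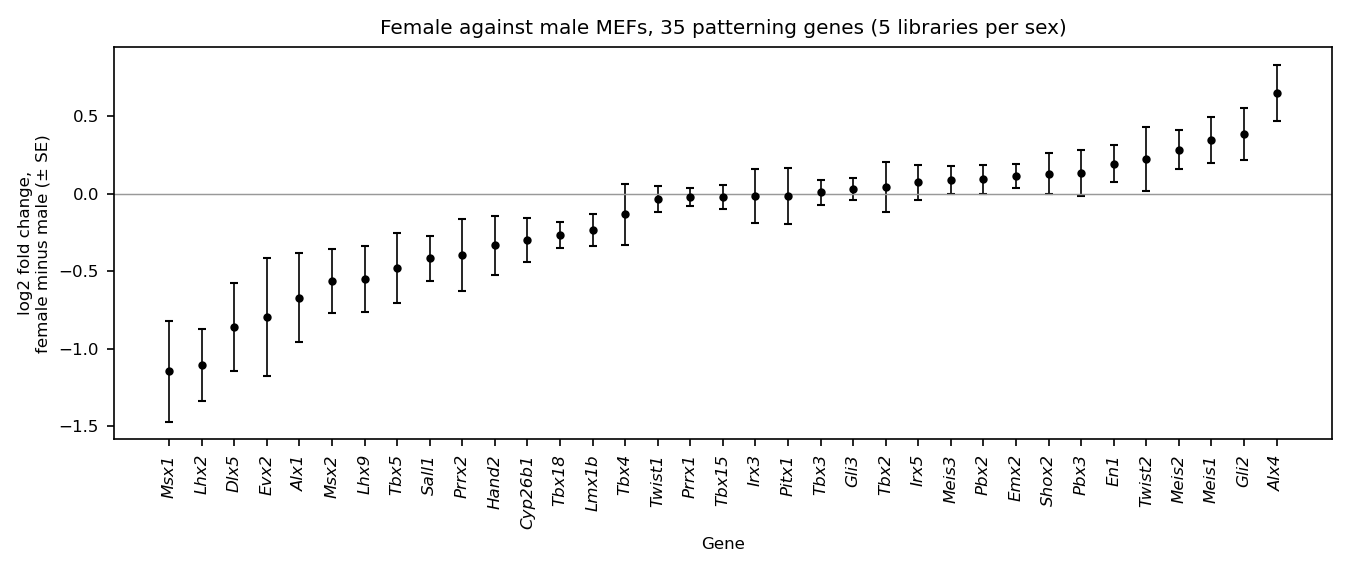
Log2 fold change, female minus male, with its standard error for the 35 tested genes, from the edgeR fit over all genes (5 libraries per sex). Msx1 and Lhx2 are lowest at -1.15 and -1.10, Alx4 is highest at 0.65, and none passed after adjustment over all genes.

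Related genes outside the set were counted from set lists, and none was called in any of the 4 lists. Of 27 measured paralogs of the members, 13 were tested, 10 with a positive and 3 with a negative fold change (median 0.17 on the log2 scale). Irx1 (21.5 ± 3.98 RPKM), Irx2 (11.6 ± 2.13) and Sall2 (3.63 ± 0.276) were among the most abundant. Irx1 and Irx2 were above Irx5 and Irx3. Tbx1, with the smallest p of that list, had a log2 fold change of 0.65 ± 0.18 (SE, edgeR adjusted p = 0.488).

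Of 30 genes of limb signalling, 26 were tested, 11 positive and 15 negative (median -0.10), and 18 were at 1 RPKM or more. Crabp1, a retinoic acid binding protein, was at 470.1 ± 132.6 RPKM, Grem1, the BMP antagonist of the limb bud, at 82.9 ± 12.6, Fgfr1 at 35.9 ± 5.54 and Wnt5a at 18.9 ± 1.78. Of the ligands of limb signalling centres, Shh was at 0.0294, Wnt3 at 0.021, Fgf8 at 0.00653 and Fgf4 at 0.00257 RPKM, while Fgf9 was at 0.145, Wnt7a at 0.171, Bmp2 at 0.381 and Bmp4 at 3.92. The smallest p were those of Bmp4 (log2 fold change -0.66 ± 0.17, adjusted p = 0.472) and Etv4 (0.21 ± 0.07, 0.613).

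Of 42 regulators of head and trunk, 34 were tested, 18 positive and 16 negative (median 0.03), and 12 reached 1 RPKM. Zfhx3 (16.98 ± 1.08 RPKM), Osr1 (10.1 ± 1.3), Zfhx4 (8.69 ± 0.563) and Nr2f2 (8.66 ± 0.922) led. Tfap2b and Tfap2a, genes of the neural crest, had the smallest p, with log2 fold changes of -2.02 ± 0.48 and -0.75 ± 0.21 (adjusted p = 0.448 and 0.525). All 24 Hox genes of limb and axial level were tested, 15 positive and 9 negative (median 0.09), and 16 reached 1 RPKM. Hoxb9 (19.5 ± 3.39 RPKM), Hoxa10 (6.93 ± 1.07), Hoxd13 (6.59 ± 3.27) and Hoxa11 (5.05 ± 1.02) were the most abundant. The digit gene Hoxa13 and Hoxd11 had the smallest p, at -0.65 ± 0.17 and -0.75 ± 0.2 (adjusted p = 0.448 and 0.457).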

How the data were processed

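RNA of 10 MEF libraries, 5 per sex, was measured by RNA-seq. The authors deposited 1 table of whole-number read counts, not normalized, per the file headers, with unique and total reads on genes, exons and introns. Per the submitters' processing notes the build is mm10, and 39 of the 40 members have the same start and end in GENCODE release M21. For the aligner, trimming and counting rules nothing is given in the sources used here. Another 100 per-library columns were left unused.

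With edgeR 4.0.16 in R 4.3.3, filterByExpr (minimum count of 10) kept 16602 genes. TMM factors were used, and sex was tested, two-sided, in a robust quasi-likelihood fit that had no other term, with Benjamini-Hochberg adjustment over all tested genes. Standard errors are the absolute log2 fold change over the square root of F. RPKM values use unique exon reads and the exon length in the table. Correlations use log2 CPM with a prior count of 2, and permutation p from 100000 resamples, two-sided. Unique gene reads numbered between 30662616 and 45859721 per library. The test was tested on simulated data. The alternatives were other scaling factors, filters and read types, DESeq2 1.42.0, limma-voom (limma 3.58.1), the replicate number as a block, and leaving out each library. Intron reads, and leaving out male 3 with male 5, were added after the data were seen.

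The members, lists and pairs were chosen with earlier results of these data known. The genes named are all 40 members, and from each list up to 4 with the highest level per length and up to 2 with the smallest p, except 1 gene that is not reported here. Of each marker list the most abundant gene and defining genes near 0 could be named. Pairs named are those with an r of at least 0.8 in size that stayed at 0.7 without any 1 library, and the set pairs. The ligands Shh, Wnt3, Wnt7a, Fgf4, Fgf8, Fgf9 and Bmp2 were chosen after their values were seen. Samples with the same replicate number were not taken as pairs.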

Additional observations from a re-analysis of the deposited data

Results flagged for a closer look

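The 35 tested members give 70 groups of 5 libraries, 1 per gene and sex. In 6 of them the highest or lowest library lay apart from the rest (Dixon's test, 95% level), and chance gives about 1 in 20 groups, or 3.5. Meis2 was at 85.86 CPM in male 1, against 60.99 to 66.98 in the other males. Gli3 was at 192.2 CPM in male 1, against 153.7 to 162.8, and Cyp26b1 at 7.881 CPM, against 10.92 to 12.13. Male 1 had the highest intron share among the males, 28.1%. Tbx5, the forelimb gene, was at 6.082 CPM in male 4, against 11.39 to 12.78 in the other males. Pbx2 was at 24.58 CPM in female 5, against 19.36 to 20.84 in the other females, and Irx5 at 16.61 CPM in female 2, against 11.01 to 12.2.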

How the results depend on the processing

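The count of 15 genes called between the sexes rose to 72 with DESeq2, 30 with no filter and 43 with the replicate block, and ran from 12 to 36 when a library was left out, the highest without male 1. No member was called in the edgeR fit, while 1 (Lhx2) was with DESeq2, with no filter and with the replicate block (adjusted p = 0.0482), and between 0 and 2 with a library left out, Lhx2 and Msx2 without male 1. The replicate numbers share only a number: the correlation of deviations within a number was between 0.0425 and 0.241, and not every library correlated best with its own number. Of 21 members whose log2 fold change exceeded its standard error, none changed direction. The 31 covarying pairs became 5 of 406 with intron reads (1.23%, against 0.833% of all gene pairs). Pbx3 with Twist1 turned to 0.0925 there, where Twist1 had only 0.5963 to 1.349 CPM per library. The 6 passing set pairs became 1 with intron reads, 3 with each sex centred and 2 by Spearman's rho, and between 2 and 7 with a library left out. The cause of these changes was not tested. Depth limits the 5 members under 0.1 RPKM, which had 14 to 72 exon reads in all.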
